A study of Mus musculus with 20 samples.

Results

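The forkhead genes of the mouse were followed across embryonic stem cell lines and the epiblast-like cells made from some of them. Members were all genes of the deposited table whose symbol is Fox, a letter from a to s, a number and at most 1 further letter. The pattern matched 44 genes, 1 of which was left out by the rule, so 43 of the 21361 genes in the table were members, from Foxa1 to Foxs1. The rule used no expression value, though it was set with earlier results of these data known.

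Poly(A) RNA had been sequenced from 20 libraries in a series on the potency of primordial germ cells (PGCs), the embryonic founders of sperm and egg. Embryonic stem cells (ESCs) are lines from the early embryo, and PGC-ESCs are lines labelled as coming from PGCs. The wildtype lines of the C57Bl6J strain came from host embryos (ESC Host, n = 4). The lines of the C57Bl6J/129SvEvRoEp label were ESC BaxKO (n = 2), ESC BaxHet (n = 1) and PGC-ESC BaxKO (n = 5), knocked out for the apoptosis gene Bax, or heterozygous for it in BaxHet. PGC-ESC DKO lines (n = 3) were C57Bl6J and lacked the apoptosis genes Puma and Noxa. Epiblast-like cells (EpiLCs), a culture model of the epiblast around implantation, had as parents the host lines 3 and 4 (EpiLC Host, wildtype, n = 2) and all PGC-ESC DKO lines (EpiLC DKO, n = 3). Each library is 1 line, so spread within a group is spread between lines. The 1 growth protocol given, for ESCs, held them in LIF with a GSK3 inhibitor and a MEK inhibitor; no EpiLC medium or duration is stated in the labels. Bax genotype, strain label and derivation cannot be told apart between the Bax lines and the C57Bl6J lines, nor can PGC origin and the Puma and Noxa knockout within C57Bl6J. Both ESC BaxKO lines also had reads of Y-linked genes where the ESC Host lines had few or none.

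Forkhead proteins share a winged-helix DNA-binding domain, and some of them (the FoxA group above all) can bind their site on DNA wrapped in nucleosomes. The FoxO group is held out of the nucleus when insulin and growth factor signals activate AKT, FoxH1 carries Nodal and activin signals to DNA with SMAD2 and SMAD3, FoxM1 drives genes of mitosis, FoxJ1 the motile cilium, and FoxP proteins act mainly as repressors. Most other members are best known as regulators of single tissues later in the embryo, among them endoderm (Foxa2), kidney stroma (Foxd1) and thyroid (Foxe1).

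Promoters of 4 members that the results turn on are printed for context, as RefSeq gives them on build GRCm38.p6, from 250 bases before to 50 bases after the annotated start and 5′ to 3′ along the gene. Capitals mark the GC box, GGGCGG on either strand, which binds SP1-type factors. Foxo1 is shown as a member that rose in both EpiLC groups, Foxi3 as a tissue regulator that rose, Foxd1 as the member with the lowest fitted change in EpiLCs, and Foxn4 as a member whose levels did not overlap between stem cell lines of the 2 strain labels. Foxo1 lies on the plus strand at chr3:52268087-52268386, Foxi3 on the plus strand at chr6:70956356-70956655, Foxd1 on the plus strand at chr13:98353995-98354294 and Foxn4 on the minus strand at chr5:114273712-114274011.
Foxo1: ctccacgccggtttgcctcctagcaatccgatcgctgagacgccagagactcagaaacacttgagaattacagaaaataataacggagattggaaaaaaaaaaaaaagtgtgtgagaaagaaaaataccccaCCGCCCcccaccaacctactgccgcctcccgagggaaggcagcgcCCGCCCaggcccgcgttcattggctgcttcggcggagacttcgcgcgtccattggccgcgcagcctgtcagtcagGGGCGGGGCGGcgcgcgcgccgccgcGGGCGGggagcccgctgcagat
Foxi3: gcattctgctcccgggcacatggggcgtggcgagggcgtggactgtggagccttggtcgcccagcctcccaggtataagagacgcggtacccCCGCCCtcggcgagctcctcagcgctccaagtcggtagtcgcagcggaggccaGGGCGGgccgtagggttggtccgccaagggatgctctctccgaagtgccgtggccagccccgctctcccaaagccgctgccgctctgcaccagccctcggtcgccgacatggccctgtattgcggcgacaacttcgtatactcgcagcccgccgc
Foxd1: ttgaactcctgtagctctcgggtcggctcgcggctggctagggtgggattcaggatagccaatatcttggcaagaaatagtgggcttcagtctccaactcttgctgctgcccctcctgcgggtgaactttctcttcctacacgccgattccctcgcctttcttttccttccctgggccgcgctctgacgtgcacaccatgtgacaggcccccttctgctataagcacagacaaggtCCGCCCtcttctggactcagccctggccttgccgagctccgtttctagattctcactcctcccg
Foxn4: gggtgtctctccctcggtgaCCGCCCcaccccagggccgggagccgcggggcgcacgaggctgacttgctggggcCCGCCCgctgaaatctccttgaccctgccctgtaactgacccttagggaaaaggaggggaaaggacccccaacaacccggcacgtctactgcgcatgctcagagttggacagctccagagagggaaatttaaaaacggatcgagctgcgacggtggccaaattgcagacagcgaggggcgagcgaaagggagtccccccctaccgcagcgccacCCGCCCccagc

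RefSeq promoters were found for 27 of the 43 members (32 promoters). A GC box stood in 24 of the 32 (75.0%), against 35.7% of 32851 mouse promoters of this length. The other motifs searched on both strands were sparse: the forkhead core TGTTTAC was in 1 of the 32 (3.65% of all promoters), the octamer ATGCAAAT of POU factors in 0 (1.74%), the OTX2 site TAATCC in 2 (7.06%) and the TATA box TATAAA in 3 (13.6%). The median ratio of observed to expected CpG was 0.674 over the member promoters (range 0.151 to 1.28) and 0.384 over all of them. These matches describe the letters of the windows and were not tied to any change in expression.

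Library totals ran from 14255399 to 33376660 counts, and levels are given as CPM, the count of a gene scaled by its library's total. The EpiLC label was checked by markers: the summed level of 11 naive pluripotency genes was 3655 to 5312 CPM in the 15 ESC and PGC-ESC libraries and 233 to 323 CPM in the 5 EpiLC libraries, and 10 EpiLC genes ran from 174 to 350 CPM and from 2028 to 3686 CPM. Marker sums of other cell types had higher medians in EpiLCs too, with overlapping ranges except for mesoderm: 12 endoderm genes summed to 6.54 to 19.9 CPM and 19.6 to 38.5 CPM, 12 mesoderm and streak genes to 27.5 to 58.3 CPM and 77.0 to 94.3 CPM, 12 neuroectoderm genes to 109.5 to 264.7 CPM and 260.7 to 377 CPM, and 10 fibroblast and feeder genes to 2.80 to 22.9 CPM and 19.5 to 24.7 CPM. Ttr of the endoderm and Postn of fibroblasts were at or near 0 in every group. Other markers moved both ways in the Host pair. Dab2 rose from 1.11 to 15.5 CPM, Sox1 from 2.60 to 97.2 CPM and Col1a2 from 0.149 to 3.03 CPM. Hnf4a fell from 0.855 to 0.0426 CPM, Tubb3 from 98.1 to 54.4 CPM and Pdgfrb from 3.76 to 1.07 CPM. Counts called in each direction are given with the members below. ESC Host 4 and PGC-ESC DKO 2 stood apart, with the lowest TMM scaling factors (0.8436 and 0.8687) and the highest levels of the ribosomal RNA gene Rn45s, which exceeded 10000 CPM in 11 libraries, all 5 EpiLC and all 3 PGC-ESC DKO libraries among them.

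Forkhead transcripts were found in all lines, at levels that differed widely between members. Summed over the 43 members, the level was 505.7 to 850.7 CPM in the ESC and PGC-ESC libraries and 936.8 to 970.3 CPM in the EpiLC libraries, with no overlap. Much of that difference lay in Foxp1, with a mean of 12.0 CPM in ESC Host and 126 CPM in EpiLC Host. The number of members at 1 CPM or more was 17 to 21 per library in the first set and 24 to 28 in the second. All genes at 1 CPM or more were not counted, so these numbers describe the members and do not set them apart from other genes. Across the whole series 14 members reached 1 CPM in every library and 13 stayed below it in every library. Per kilobase of exon, the highest mean levels in ESC Host were those of Foxp4 (38.4 CPM per kilobase), Foxh1 (25.3), Foxk2 (14.9), Foxo4 (14.2) and Foxm1 (13.3). In EpiLC Host the order per kilobase was Foxh1 (51.9), Foxo4 (30.5), Foxp4 (23.8), Foxk2 (22.1), Foxi3 (19.0) and Foxm1 (15.1). The heat map of members by library shows the same contrast as bright and dark bands.

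**Figure D1:**
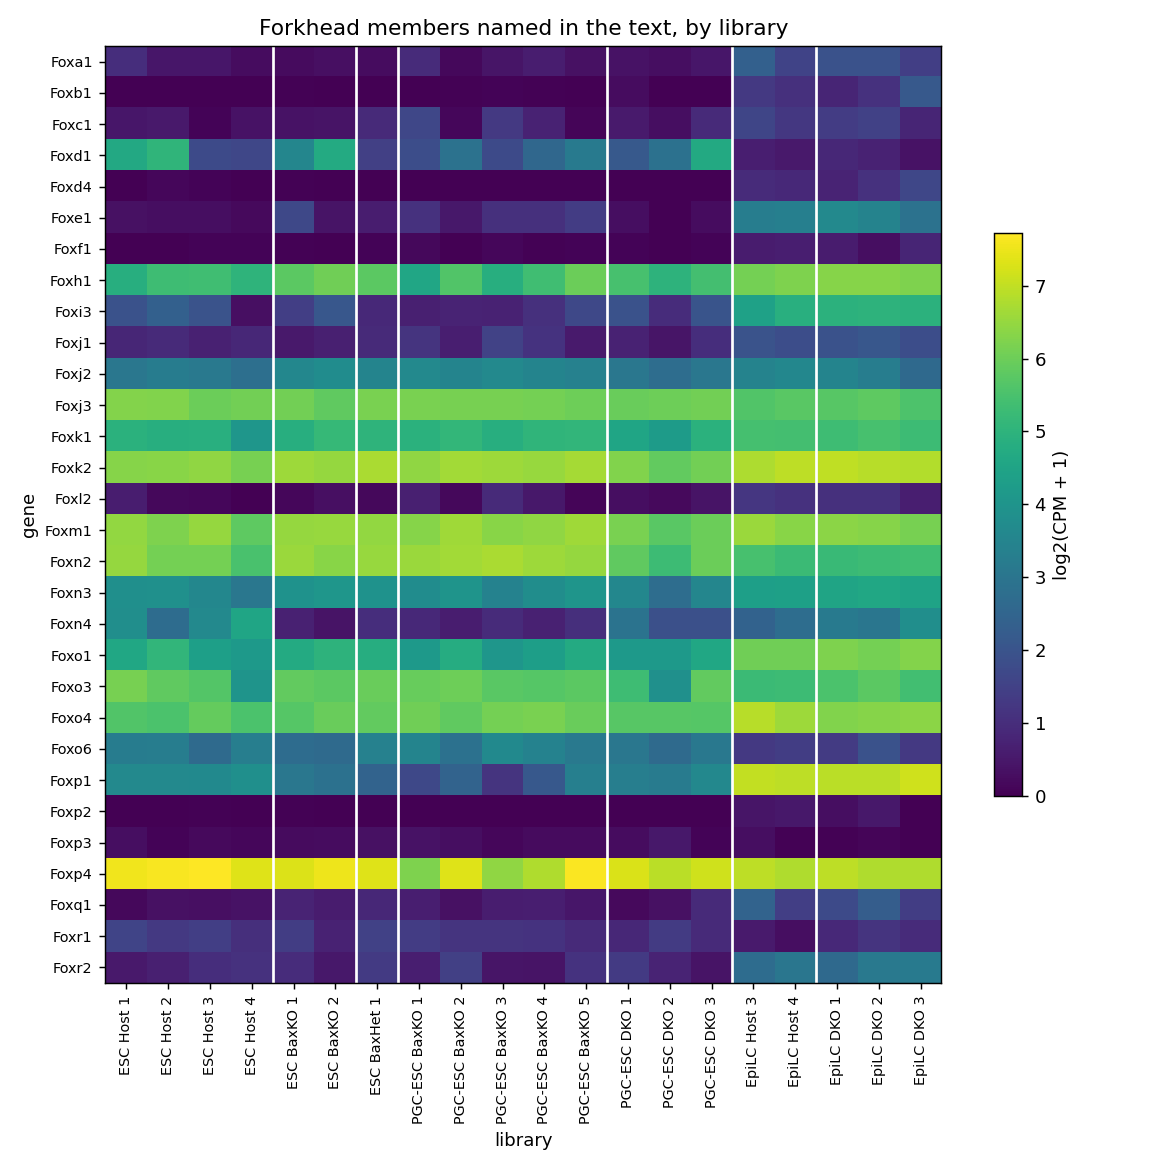
Level of the 30 named forkhead members (vertical axis) in each of the 20 libraries (horizontal axis), as log2(CPM + 1) on a colour scale, with white lines between groups. Foxp1, Foxe1, Foxi3 and Foxr2 are brighter in the 5 EpiLC libraries than in any of the 15 others, Foxo6 and Foxd1 are darker, and Foxn4 is dark in the 8 Bax lines.

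The conversion to EpiLCs was tested with edgeR's quasi-likelihood test, with p-values adjusted by Benjamini-Hochberg over 16363 genes, and calls were made below an adjusted p of 0.05. Of the 43 members, 36 passed the filter on low counts; Foxb2, Foxe3, Foxf2, Foxi1, Foxi2, Foxl1 and Foxs1 did not, and none of these exceeded 0.264 CPM in any library. In EpiLC Host against ESC Host, 26 members were called, 19 higher and 7 lower, where 44% of all genes tested were called, 22.4% higher and 21.7% lower. In EpiLC DKO against PGC-ESC DKO, 22 members were called, 17 higher and 5 lower, against 47.6% of all genes, 25.1% higher and 22.5% lower. A member that is silent in most lines could pass the filter only through the group in which it is high, so the counts describe the family and are not evidence that it rose. Among the 17 members with a mean of at least 5 CPM over all libraries, 8 were higher and 6 lower in EpiLC Host (17.6% and 26.4% of genes at that level), and 8 were higher and 4 lower in EpiLC DKO (20.3% and 28.6%). That mean includes the EpiLC libraries, and Foxi3 and Foxn4 reach it only with them. Both conversions moved 17 members up (19.8% of all genes were higher in both) and Foxd1, Foxj3, Foxn2 and Foxo6 down (18.3%). None was called in opposite directions. In bulk RNA a change in the number of cells that express a gene and a change in the RNA per cell cannot be told apart.

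**Figure D2:**
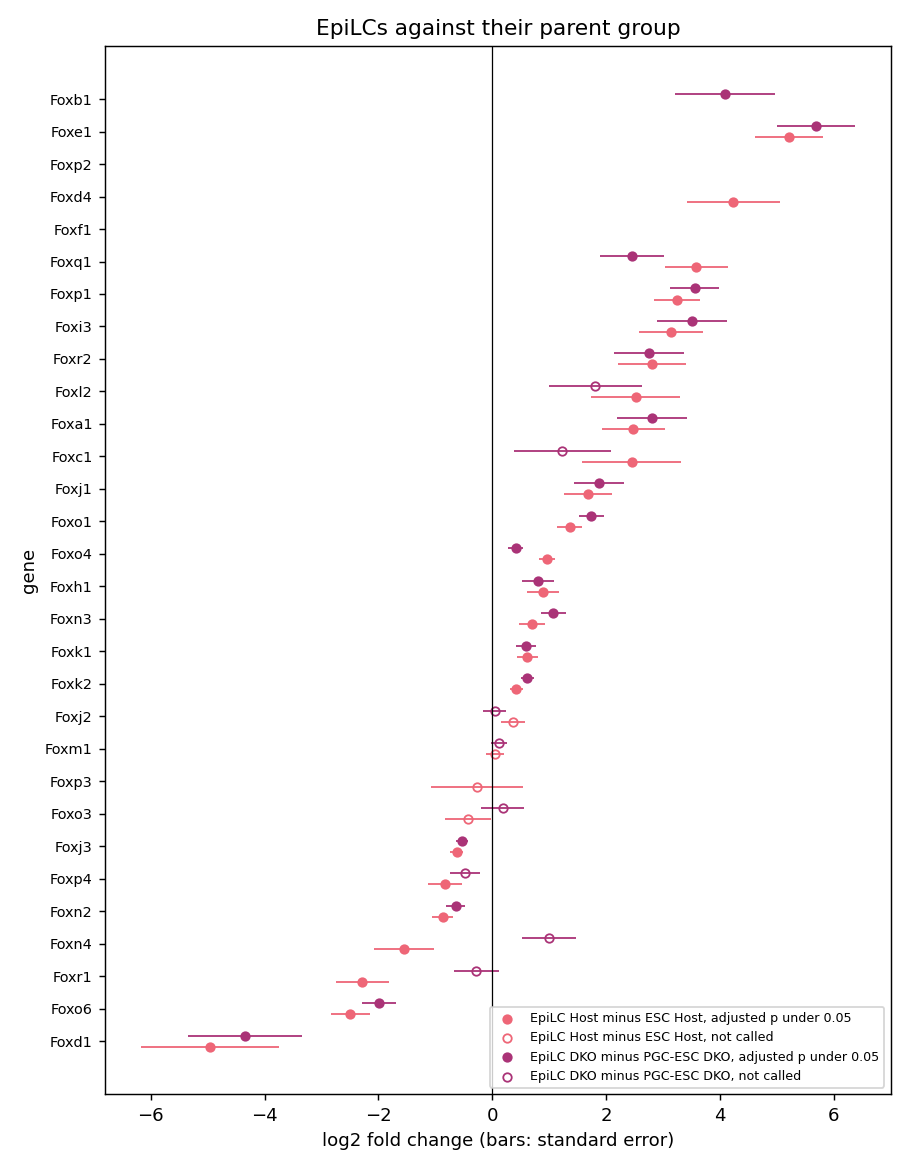
Log2 fold change (horizontal axis, bars give the standard error) of the named members (vertical axis) in EpiLC Host minus ESC Host and EpiLC DKO minus PGC-ESC DKO, with filled circles for an adjusted p under 0.05 and open circles for other results. Points are left out where either group had 3 counts or fewer in all, since a fitted value then depends on the prior count. Foxe1 has the highest plotted change in both conversions (5.21 and 5.69), and Foxd1 the lowest (-4.96 and -4.35).

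Within the FoxO group, Foxo1 and Foxo4 rose, Foxo6 fell, and Foxo3 gave no call. Foxo1, an effector of insulin and PI3K signalling that is needed for pluripotency in human ESCs (chr3:52268336-52353221, plus strand, 3 exon blocks), stood at 23.1, 33.1, 19.6 and 17.2 CPM in ESC Host 1 to 4 and at 64.7 and 65.4 CPM in EpiLC Host 3 and 4. In PGC-ESC DKO it was at 17.2, 16.8 and 23.3 CPM, and in EpiLC DKO at 73.2, 68.2 and 77.4 CPM. Every EpiLC library was above every ESC and PGC-ESC library. The log2 fold changes were 1.36 ± 0.21 (standard error, adjusted p 6.29e-05) and 1.74 ± 0.22 (adjusted p 4.68e-06). An antisense gene, Gm20402, overlaps Foxo1, and its reads cannot be told apart without strand.

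Foxo4, the X-linked FoxO gene (chrX:101254528-101260873, plus strand), was at 48.2, 45.4, 58.6 and 45.1 CPM in ESC Host and at 116 and 96.2 CPM in EpiLC Host, a change of 0.96 ± 0.14 (adjusted p 2.06e-05). It was at 52.0, 51.0 and 50.5 CPM in PGC-ESC DKO and at 75.3, 78.3 and 81.4 CPM in EpiLC DKO, a change of 0.41 ± 0.13 (adjusted p 0.0163). Neither pair of groups overlapped, and the 3 EpiLC DKO libraries lay below both EpiLC Host libraries. The difference between the conversions was -0.55 ± 0.19 with an unadjusted p of 0.0106 and an adjusted p of 1, so it was not called. The smaller change lost its call without EpiLC DKO 3 (adjusted p 0.0557) or without PGC-ESC DKO 3 (adjusted p 0.0607).

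Foxo6, a FoxO gene best known from the brain (chr4:120267079-120287349, minus strand), was at 8.44, 8.76, 5.35 and 8.85 CPM in ESC Host and at 1.45 and 1.62 CPM in EpiLC Host. It went from 7.32, 5.33 and 7.60 CPM in PGC-ESC DKO to 1.53, 2.84 and 1.43 CPM in EpiLC DKO. No EpiLC library reached the lowest ESC or PGC-ESC library, and the changes were -2.50 ± 0.34 (adjusted p 1.48e-05) and -1.99 ± 0.30 (adjusted p 3.17e-05). Foxo3, the FoxO gene that holds ovarian follicles and adult stem cells at rest (chr10:42181841-42276755, minus strand), was at 69.3, 56.6, 49.2 and 14.9 CPM in ESC Host, 37.4 and 38.3 CPM in EpiLC Host, 38.7, 13.7 and 56.7 CPM in PGC-ESC DKO and 45.5, 53.9 and 41.0 CPM in EpiLC DKO. Its low values lay in ESC Host 4 and PGC-ESC DKO 2, the libraries that stand apart, and the groups overlapped. The changes were -0.43 ± 0.41 (adjusted p 0.416) and 0.19 ± 0.38 (adjusted p 0.714); without both of those libraries the Host change was -0.71 ± 0.16 and was called (adjusted p 0.0017).

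Of 20 genes listed from textbook knowledge as FoxO targets, 19 were tested: 8 were higher and 4 lower in EpiLC Host, and 9 higher and 5 lower in EpiLC DKO, with median log2 fold changes of 0.42 and 0.71 where the medians of all genes were -0.03 and 0.01. Beside this list and the next, 22.4% of all genes were higher and 21.7% lower in EpiLC Host. The shares in EpiLC DKO were 25.1% and 22.5%. Bcl2l11, which encodes the apoptosis activator Bim, rose by 1.82 ± 0.17 (adjusted p 2.13e-07) and 1.97 ± 0.17 (adjusted p 9.96e-08). Irs2, an adaptor of the insulin receptor, rose by 2.22 ± 0.29 and 1.99 ± 0.29. Bnip3, a mitophagy receptor, rose by 1.40 ± 0.37 and 2.82 ± 0.39. Of 16 genes of the PI3K-AKT route upstream of FoxO, 7 were higher and 3 lower in EpiLC Host and 8 higher and 3 lower in EpiLC DKO (medians 0.41 and 0.49). Irs1, another adaptor of the insulin receptor, rose by 3.76 ± 0.41 and 2.80 ± 0.41, while Sgk1, a kinase that like AKT phosphorylates FoxO proteins, fell by 1.99 and 1.57 on the log2 scale.

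The FoxP group held the member with the largest fitted rise, in both conversions, among the 17 with a mean of at least 5 CPM. Foxp1, a repressor with roles in B cells, heart and neurons (chr6:98925338-99522721, minus strand, 34 exon blocks), was at 11.5, 11.4, 11.8 and 13.3 CPM in ESC Host and at 129 and 123 CPM in EpiLC Host. In PGC-ESC DKO it was at 8.92, 8.35 and 11.3 CPM, and in EpiLC DKO at 121, 120.2 and 142 CPM. The EpiLC libraries were far above all others, with changes of 3.24 ± 0.41 (adjusted p 5.49e-06) and 3.56 ± 0.44 (adjusted p 4.21e-06). The gene-level count does not separate the splice forms of Foxp1, and the exons of Gm20696 and Gm49348 overlap it.

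Foxp4, a FoxP gene of lung and gut endoderm (chr17:47867133-47924645, minus strand), moved the other way and had the highest level per kilobase in ESC Host. It was at 187, 199, 209.8 and 159.6 CPM in ESC Host and 123 and 111 CPM in EpiLC Host, and the groups did not overlap (-0.83 ± 0.29, adjusted p 0.0287). In PGC-ESC DKO it was at 155, 121 and 143 CPM and in EpiLC DKO at 122, 111 and 111 CPM, which overlapped (-0.48 ± 0.27, adjusted p 0.149). The Host call was lost without EpiLC Host 3 (adjusted p 0.1), EpiLC Host 4 (0.161) or ESC Host 3 (0.0547). With each EpiLC library paired with its parent line, the DKO fall was called (-0.49, adjusted p 0.00766), as it was with only the compared groups fitted (adjusted p 0.00525) or only libraries above 10000 CPM of Rn45s (0.00643). Per kilobase of exon, Foxp4 exceeded Foxp1 in every group, at 38.4 against 0.872 CPM per kilobase in ESC Host and 23.8 against 9.19 in EpiLC Host.

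Foxp2, the FoxP gene tied to vocal learning, was near 0 in all ESC and PGC-ESC libraries and at 0.34 and 0.415 CPM in EpiLC Host. That is 19 counts against 1 count in ESC Host, a ratio of 38.6 with a 95% counting interval of 6.13 to 1603. In EpiLC DKO it was at 0.21, 0.412 and 0 CPM against 0 counts in PGC-ESC DKO, at least 4.91-fold higher when the latter is set to 3 counts over the group. edgeR called both (adjusted p 0.00685 and 0.0193) and DESeq2 neither (0.174 and 0.219). Foxp3, the regulator of regulatory T cells, did not exceed 0.421 CPM in any library. It was called lower in EpiLC DKO (adjusted p 0.0239) on 3 counts against 13, a ratio of 5.30 (interval 1.46 to 29.0); exons of Ppp1r3f, Ccdc22 and Flicr overlap it, and the call was lost without EpiLC DKO 3 (adjusted p 0.0594). Of 16 corepressors and partners of FoxP and FoxK proteins, 5 were higher and 4 lower in both conversions; the deacetylases Hdac1 (-0.73 ± 0.17 and -0.92 ± 0.16) and Hdac2 (-0.40 ± 0.14 and -0.76 ± 0.13) fell and Mta1 of the NuRD complex rose (0.97 ± 0.18 and 0.90 ± 0.17). The medians of that list were 0.05 and 0.16. Among all genes, 22.4% and 25.1% were higher and 21.7% and 22.5% lower in the Host and DKO pairs.

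**Figure D3:**
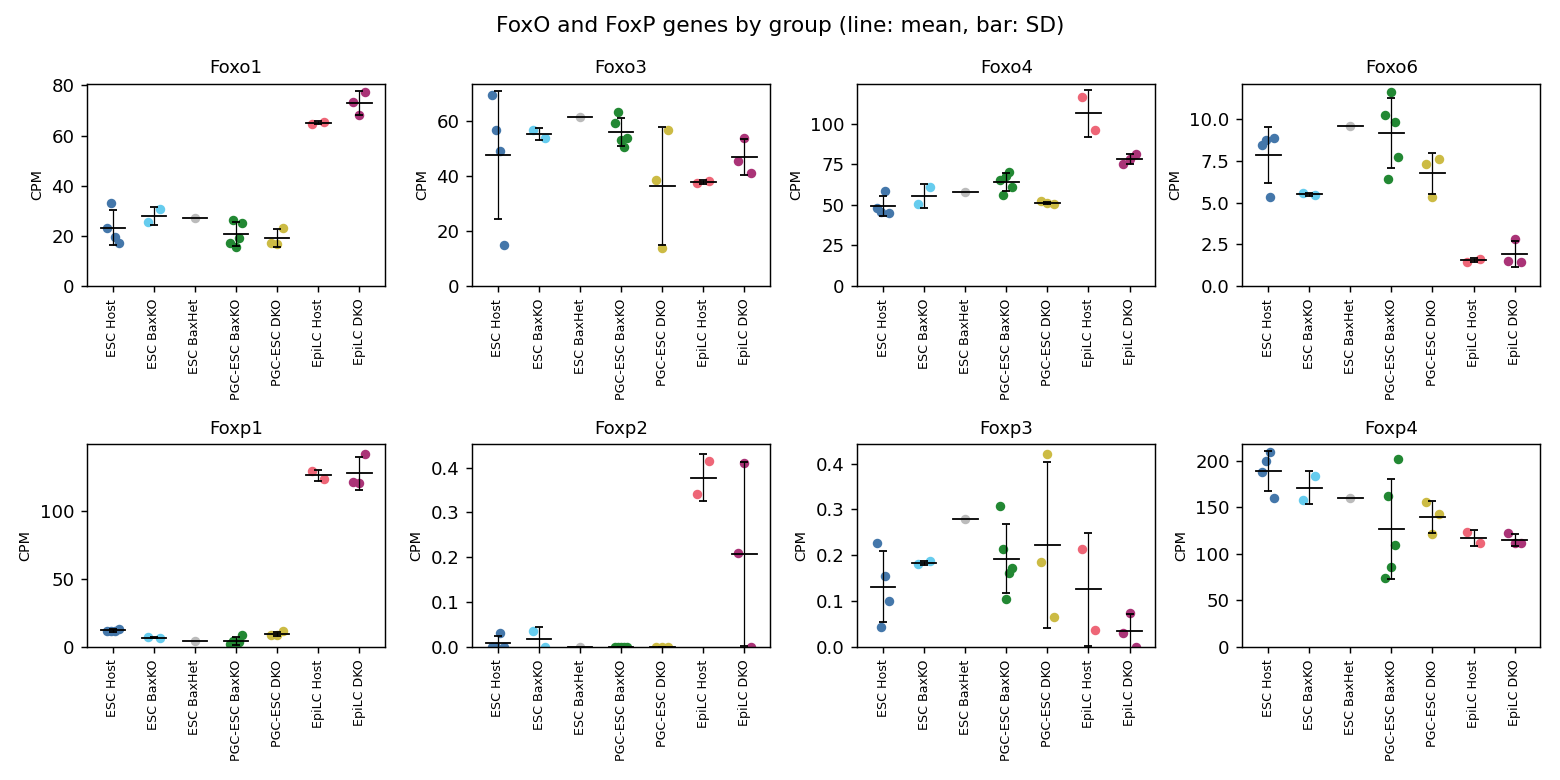
CPM (vertical axes, each from 0) of the FoxO genes in the upper panels and FoxP genes in the lower panels, by group on the horizontal axes; each point is a library, the line is the mean and the bar is the SD (not drawn below 0). Foxo1, Foxo4 and Foxp1 are highest in the EpiLC groups, Foxo6 is lowest there, and Foxo3 has 1 low library in ESC Host (14.9 CPM) and 1 in PGC-ESC DKO (13.7 CPM).

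Foxh1, which recruits SMAD2 and SMAD3 to Nodal target genes (chr15:76668225-76669948, minus strand), had the highest level per kilobase of any member in EpiLCs. It was at 27.4, 39.3, 39.8 and 31.7 CPM in ESC Host and 67.8 and 73.8 CPM in EpiLC Host, and at 43.1, 30.9 and 41.2 CPM in PGC-ESC DKO and 78.3, 78.5 and 73.8 CPM in EpiLC DKO. Both pairs of groups were separate (0.89 ± 0.28, adjusted p 0.0164, and 0.80 ± 0.28, adjusted p 0.0234). The calls were narrow: the first was lost without EpiLC Host 3 or 4 (adjusted p 0.0589 and 0.0967), the second without EpiLC DKO 1 or 2 or PGC-ESC DKO 2 or 3 (0.0504 to 0.0878), with changes that stayed positive. The Host call was also lost with a term for Rn45s (0.75 ± 0.32, adjusted p 0.0674), and the DKO call without ESC Host 4 and PGC-ESC DKO 2 together (0.65 ± 0.32, adjusted p 0.113). Foxh1 was also at 53.7 to 65.4 CPM in the 2 ESC BaxKO lines and at 54.1 CPM in ESC BaxHet, above every ESC Host library. The edgeR test of ESC BaxKO against ESC Host did not call it (0.71 ± 0.28, adjusted p 0.165). The PGC-ESC BaxKO lines ran from 22.9 to 62.5 CPM and overlapped ESC Host. Of 15 tested genes among Foxh1 partners and the Nodal pathway, 7 were higher and 3 lower in EpiLC Host and 6 higher and 3 lower in EpiLC DKO (medians 0.39 and 0.31). Shares of all genes were 22.4% higher and 21.7% lower in EpiLC Host, and 25.1% and 22.5% in EpiLC DKO. Lefty1, a secreted Nodal inhibitor, rose from 18.8 to 820.3 CPM and from 24.4 to 728.6 CPM (5.29 ± 0.53 and 4.67 ± 0.56). The activin receptor Acvr2b rose by 1.33 ± 0.13 and 1.48 ± 0.13.

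Foxk1 and Foxk2, repressors of autophagy genes that also act on glycolysis, rose in both conversions: Foxk1 by 0.62 ± 0.18 and 0.59 ± 0.18 (adjusted p 0.0108 and 0.0103) and Foxk2 by 0.42 ± 0.12 and 0.61 ± 0.11 (adjusted p 0.00676 and 0.000216). Foxk2 was at 78.9, 80.9, 85.0 and 69.4 CPM in ESC Host, 109 and 123 CPM in EpiLC Host, 76.1, 57.5 and 67.1 CPM in PGC-ESC DKO and 124, 117 and 112 CPM in EpiLC DKO. The EpiLC values lay above their parent groups throughout. In the Host pair the Foxk2 call was lost without EpiLC Host 4 (adjusted p 0.101) with lines paired (0.36 ± 0.16, adjusted p 0.0934), among libraries above 10000 CPM of Rn45s (0.34 ± 0.15, adjusted p 0.0947) and with only the compared groups fitted (adjusted p 0.0622). That of Foxk1 was lost there without EpiLC Host 3 (0.0674) or 4 (0.0544) and with only the compared groups fitted (0.0541), and in the DKO pair without PGC-ESC DKO 2 (0.0574).

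Foxn3, a repressor known as a checkpoint suppressor, rose from 13.4, 13.6, 10.8 and 7.26 CPM in ESC Host to 19.7 and 20.1 CPM in EpiLC Host and from 11.0, 5.82 and 10.6 CPM in PGC-ESC DKO to 21.8, 23.2 and 21.2 CPM in EpiLC DKO (0.69 ± 0.23, adjusted p 0.0199, and 1.07 ± 0.22, adjusted p 0.000789). All EpiLC libraries were above all parent libraries, but the Host call was lost without EpiLC Host 3 or 4 (adjusted p 0.0839 and 0.095). Foxn2 fell, from 90.02, 67.5, 68.2 and 44.0 CPM to 43.4 and 37.1 CPM in the Host pair and from 55.8, 38.0 and 62.8 CPM to 36.9, 38.1 and 39.9 CPM in the DKO pair (-0.87 ± 0.18, adjusted p 0.00084, and -0.64 ± 0.17, adjusted p 0.00425). The DKO groups overlapped through PGC-ESC DKO 2. Foxj3, a factor of spermatogenesis and muscle, fell from 62.3 to 76.8 CPM in ESC Host to 48.0 and 53.0 CPM in EpiLC Host, and from 61.3 to 66.7 CPM in PGC-ESC DKO to 46.2 to 55.1 CPM in EpiLC DKO (-0.62 ± 0.11, adjusted p 0.000218, and -0.53 ± 0.10, adjusted p 0.000408). Neither pair overlapped.

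Foxm1, the driver of G2 and mitosis genes (chr6:128362967-128376146, plus strand), was not called by edgeR in any of the 8 comparisons. It was at 87.7, 73.6, 89.7 and 55.3 CPM in ESC Host, 92.5 and 80.9 CPM in EpiLC Host, 70.5, 52.2 and 62.2 CPM in PGC-ESC DKO and 82.9, 78.5 and 69.6 CPM in EpiLC DKO. The changes were 0.05 ± 0.15 (95% interval -0.28 to 0.37) and 0.12 ± 0.15 (-0.19 to 0.43). Of 18 mitotic genes that FoxM1 is known to drive, 1 was higher and 2 lower in EpiLC Host and 3 higher and 2 lower in EpiLC DKO (medians 0.08 and 0.15). All genes gave 22.4% higher and 21.7% lower in EpiLC Host, and 25.1% and 22.5% in EpiLC DKO. The phosphatase Cdc25b rose (0.55 ± 0.17 and 0.95 ± 0.17) and survivin, Birc5, fell by 0.52 on the log2 scale in both. In PGC-ESC BaxKO against PGC-ESC DKO, Foxm1 was called higher by DESeq2 (0.34 ± 0.14, adjusted p 0.0446) and by edgeR without PGC-ESC DKO 1 (0.46 ± 0.15, adjusted p 0.0425), where edgeR with all libraries gave 0.35 ± 0.13 (adjusted p 0.0629). Foxj2 was not called by edgeR in either conversion, at 6.02 to 8.54 CPM in ESC Host and 9.91 and 10.9 CPM in EpiLC Host (0.36 ± 0.21, adjusted p 0.178), and at 5.75 to 7.29 CPM in PGC-ESC DKO and 5.23 to 10.3 CPM in EpiLC DKO. Nor did edgeR call it between the line groups, where DESeq2 called it higher in ESC BaxKO than in ESC Host (0.59 ± 0.20, adjusted p 0.0358) and in PGC-ESC BaxKO than in PGC-ESC DKO (0.46 ± 0.17, adjusted p 0.0339).

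Foxj1, the regulator of motile cilia (chr11:116330704-116335399, minus strand), rose at a low level, from 0.618 to 0.88 CPM in ESC Host to 2.89 and 2.56 CPM in EpiLC Host and from 0.677, 0.351 and 1.03 CPM in PGC-ESC DKO to 2.88, 3.25 and 2.55 CPM in EpiLC DKO. The groups were separate and the changes were 1.68 ± 0.42 (adjusted p 0.00375) and 1.88 ± 0.44 (adjusted p 0.00189). Of 12 tested genes of the motile cilium, 3 were higher and 2 lower in EpiLC Host and 4 higher and 3 lower in EpiLC DKO (medians 0.28 and 0.34). Of all genes tested, 22.4% were higher and 21.7% lower in EpiLC Host, and 25.1% and 22.5% in EpiLC DKO. Ccdc40, which spaces the ciliary dynein arms, rose by 1.77 ± 0.23 and 1.92 ± 0.24, and Cfap43 fell by 1.41 and 0.89 on the log2 scale.

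Several tissue regulators that were low or absent in ESCs were higher in EpiLCs. Foxe1, a thyroid and palate factor (chr4:46343609-46346412, plus strand, 1 exon block), was at 0.265, 0.22, 0.216 and 0.149 CPM in ESC Host and 8.72 and 9.12 CPM in EpiLC Host (5.21 ± 0.59, adjusted p 1.83e-06). In the DKO pair it went from 0.215, 0 and 0.193 CPM to 11.4, 9.99 and 6.53 CPM (5.69 ± 0.68, adjusted p 3.21e-06). All EpiLC libraries were above all others, and without PGC-ESC DKO 1 the DKO change was 6.29. The antisense gene Gm12446 overlaps Foxe1.

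Foxi3, a factor of the cranial placodes, jaw and skin appendages (chr6:70956531-70961066, plus strand), had the highest level of the tissue regulators in EpiLCs, at 19.0 and 23.7 CPM per kilobase of exon in EpiLC Host and EpiLC DKO. It was at 2.88, 4.14, 2.97 and 0.249 CPM in ESC Host, with the low value in ESC Host 4, and at 20.3 and 28.3 CPM in EpiLC Host (3.14 ± 0.57, adjusted p 0.000234). In PGC-ESC DKO it was at 2.89, 0.982 and 3.03 CPM and in EpiLC DKO at 29.9, 31.1 and 30.2 CPM (3.51 ± 0.61, adjusted p 0.00015). The EpiLC groups lay well above every other library. Foxr2, an X-linked member that is activated in human brain tumours (chrX:153118786-153132861, plus strand), was at 0.454 to 1.14 CPM in ESC Host, 5.62 and 7.13 CPM in EpiLC Host, 0.322 to 1.51 CPM in PGC-ESC DKO and 5.27 to 7.84 CPM in EpiLC DKO. Its groups were separate too (2.80 ± 0.59, adjusted p 0.000951, and 2.75 ± 0.62, adjusted p 0.00141; 3.55 without PGC-ESC DKO 1).

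Foxa1, a pioneer factor of endoderm-derived organs, was at 0.199 to 1.02 CPM in ESC Host and 4.17 and 1.96 CPM in EpiLC Host (2.48 ± 0.55, adjusted p 0.00137; 1.84 without EpiLC Host 3), and at 0.21 to 0.386 CPM in PGC-ESC DKO and 1.68 to 2.88 CPM in EpiLC DKO (2.81 ± 0.61, adjusted p 0.00107). Both pairs were separate. Its relatives Foxa2 and Foxa3 gave no call and did not exceed 1.08 and 2.16 CPM in any library. Of 11 tested endoderm markers, 2 were higher (Dab2 and Amn) and 1 lower (Hnf4a) in both conversions. Over all genes 22.4% and 25.1% were higher and 21.7% and 22.5% lower in the Host and DKO pairs. The part of other cells in the rise of Foxa1 was not tested.

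Foxb1, a diencephalon factor, had 0 counts in ESC Host and 63 counts in EpiLC Host (1.45 and 1.09 CPM), at least 42.6-fold higher with ESC Host set to 3 counts over the group. In the DKO pair it was at 0.185, 0 and 0 CPM and at 0.749, 1.16 and 3.48 CPM (4.09 ± 0.88, adjusted p 0.00141). The fitted value was 3.19 without EpiLC DKO 3. Foxd4, which acts in early neural ectoderm (shown for its frog relatives), had 0 counts in PGC-ESC DKO and 87 in EpiLC DKO (0.689, 1.12 and 2.12 CPM), at least 23.7-fold higher, and went from 0 to 0.088 CPM in ESC Host to 0.936 and 0.867 CPM in EpiLC Host (4.24 ± 0.82, adjusted p 0.00123). For both genes the EpiLC libraries were above every parent library. Of 11 tested neuroectoderm markers, 7 were higher and 1 lower in each conversion, Sox1 among the higher (97.2 against 2.60 CPM in the Host pair), and no test tied them to these members. For all genes the shares were 22.4% and 25.1% higher and 21.7% and 22.5% lower in the Host and DKO pairs.

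Foxf1, a lateral mesoderm and lung mesenchyme factor, had 27 counts in EpiLC Host against 3 in ESC Host, a ratio of 18.3 (95% counting interval 5.62 to 94.1), and 35 in EpiLC DKO against 3 in PGC-ESC DKO, a ratio of 9.54 (3.01 to 48.5). Both were called (adjusted p 0.00149 and 0.00945), at 0.224 to 0.746 CPM in the EpiLC libraries. Foxq1, a factor of hair and stomach, was at 0.114 to 0.298 CPM in ESC Host and 4.51 and 1.70 CPM in EpiLC Host, and at 0.154 to 0.901 CPM in PGC-ESC DKO and 1.62 to 3.89 CPM in EpiLC DKO (3.59 ± 0.56, adjusted p 5.32e-05, and 2.45 ± 0.56, adjusted p 0.0017). The change was 2.72 without EpiLC Host 3 and 3.43 without PGC-ESC DKO 3. Foxc1, a mesoderm and eye factor, and Foxl2, an ovary factor, were called higher in the Host pair alone (2.45 ± 0.87, adjusted p 0.0289, and 2.53 ± 0.78, adjusted p 0.0141), and the difference between conversions was not called for either. Foxc1 lost its call without EpiLC Host 3 or 4 or ESC Host 3 (adjusted p 0.0582 to 0.151), and Foxl2 without EpiLC Host 3 (0.071). Without ESC Host 1 the Foxl2 change was 3.73, and with lines paired Foxl2 was also called in the DKO pair (1.79 ± 0.61, adjusted p 0.0307), as it was with only the compared groups fitted (0.00765). The noncoding Foxl2os overlaps Foxl2. Of 11 tested mesoderm and streak markers, 4 were higher and 1 lower in EpiLC Host and 6 higher and 2 lower in EpiLC DKO. Of 7 tested fibroblast and feeder markers, 5 and 4 were higher and 0 lower. Across all genes 22.4% and 25.1% were higher and 21.7% and 22.5% lower in the Host and DKO pairs. The part of these markers' cell types in the low values was not tested.

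Members of the same chromosomal clusters are given together here, with no test between neighbours. Foxq1, Foxf2 and Foxc1 lie within 500 kb on chromosome 13. Foxq1 was called in both conversions, Foxc1 in 1, and Foxf2, which was below the filter, had 5 counts in EpiLC Host against 1 in ESC Host (ratio 10.2, interval 1.14 to 480.3) and 5 in EpiLC DKO against 0 in PGC-ESC DKO. Foxf1, Foxc2 and Foxl1 lie together on chromosome 8; Foxf1 rose, Foxc2 was not called (-1.21 ± 0.64, adjusted p 0.137, and -1.24 ± 0.61, adjusted p 0.102), and Foxl1, also below the filter, had 6 counts in EpiLC Host against 1 in ESC Host (ratio 12.2, interval 1.48 to 560.5) and 5 in EpiLC DKO against 0 in PGC-ESC DKO.

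Foxd1, the kidney stroma factor (chr13:98354242-98359305, plus strand, 1 exon block), fell in EpiLCs and also spread widely between stem cell lines. It was at 24.0, 31.8, 2.32 and 2.14 CPM in ESC Host and 0.553 and 0.452 CPM in EpiLC Host, and at 3.41, 6.38 and 24.7 CPM in PGC-ESC DKO and 0.809, 0.673 and 0.311 CPM in EpiLC DKO. The groups did not overlap (-4.96 ± 1.21, adjusted p 0.00291, and -4.35 ± 1.00, adjusted p 0.00169), but the size rested on few lines. Against their own parents, lines 3 and 4 alone, the Host fall was -2.37 (adjusted p 0.0259 with lines paired). Without PGC-ESC DKO 3 the DKO change was -3.20. ESC Host 1 and 2, the high lines, were also below 10000 CPM of Rn45s, whereas ESC Host 3 and 4 and all EpiLC libraries were above it; in libraries above it the Host change was -2.39. The Host fall kept its call with a term for Rn45s. The part of Rn45s in the spread between the ESC Host lines was not tested.

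Foxr1 and Foxn4 fell in the Host pair alone. Foxr1 was at 1.97, 1.45, 1.70 and 1.04 CPM in ESC Host and 0.468 and 0.226 CPM in EpiLC Host (-2.28 ± 0.47, adjusted p 0.000787; -2.87 without EpiLC Host 3), and at 0.80, 1.54 and 0.901 CPM in PGC-ESC DKO and 0.869, 1.23 and 0.933 CPM in EpiLC DKO (-0.28 ± 0.40, adjusted p 0.582). The Host pair was separate and the DKO pair overlapped. The difference between the conversions was 2.00 ± 0.61, with an unadjusted p of 0.00412 and an adjusted p of 1. Foxn4, a factor of retinal progenitors and spinal interneurons (chr5:114254164-114273807, minus strand), went from 13.0, 5.63, 11.4 and 22.3 CPM in ESC Host to 4.38 and 5.81 CPM in EpiLC Host (-1.55 ± 0.53, adjusted p 0.0238). In the DKO pair it went from 6.67, 2.67 and 2.703 CPM to 7.85, 7.18 and 12.9 CPM (0.99 ± 0.47, adjusted p 0.0929), and with lines paired this rise was called (1.03 ± 0.36, adjusted p 0.0355). The Host groups overlapped through ESC Host 2, the DKO groups did not, and the Host call was lost without EpiLC Host 3 (adjusted p 0.166), EpiLC Host 4 (0.0799) or ESC Host 4 (0.0739), and with only the compared groups fitted (0.0633). The difference between the conversions was 2.54 ± 0.71 (unadjusted p 0.00211, adjusted p 1).

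No member was called for a difference between the conversions by edgeR, where 0.00611% of all genes were (1 gene, lower). At an unadjusted p under 0.05 there were 4 of the 36 tested (Foxn4, Foxr1, Foxo4 and Foxb1), where 2.8% of all genes were. DESeq2 also called 0. EpiLC DKO against EpiLC Host gave 0 called members against 0.0428% of all genes (0.0122% higher and 0.0306% lower). There 2 members had an unadjusted p under 0.05, against 3.04% of all genes: Foxr1 was 1.55 ± 0.49 higher in EpiLC DKO and Foxo4 differed by -0.43 ± 0.15 (adjusted p 0.978 and 1). DESeq2 called 0 there as well. Foxp1 was at 126 ± 4.04 CPM (SD, n = 2) in EpiLC Host and 128 ± 12.2 CPM (SD, n = 3) in EpiLC DKO.

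Among the stem cell lines, PGC-ESC lines were set beside ESC lines of the same strain label to ask whether lines of PGC origin differ from lines of the embryo. In the Bax knockout lines, 0 members were called (0.0367% of all genes were, 0.00611% higher and 0.0306% lower), and 0 by DESeq2. An unadjusted p under 0.05 was reached by 6 of the 36 tested members and by 10% of all genes. Those 6 were Foxn1, Foxc2, Foxo6, Foxd1, Foxo1 and Foxh1, with adjusted p between 0.463 and 0.499. The groups also differed in Y-linked reads. ESC BaxKO 1 and 2 had a mean of 61.1 and 47.0 CPM of 4 Y-linked genes. PGC-ESC BaxKO 2 and 5 had 53.5 and 53.0 CPM, and PGC-ESC BaxKO 1, 3 and 4 had none. With a term for Y-linked reads 0 members were called too. Foxo6 was at 6.39 to 11.6 CPM (median 9.81) in the 5 PGC-ESC BaxKO lines and 5.56 and 5.42 CPM in ESC BaxKO, and Foxd1 at 2.30 to 8.13 CPM (median 4.96) against 10.5 and 25.4 CPM. Both pairs were separate, with changes of 0.71 ± 0.30 and -1.89 ± 0.80. In the C57Bl6J lines, PGC-ESC DKO against ESC Host, edgeR called 0 members (0.116% of all genes, 0.055% higher and 0.0611% lower). An unadjusted p under 0.05 was reached by 2, Foxn4 (-1.66 ± 0.46, adjusted p 0.299) and Foxb1, where 7.3% of all genes reached it. DESeq2 called 1, Foxn4, with an adjusted p of 0.0464.

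Comparisons across the strain labels gave calls for Foxn4 and Foxe1 both in ESC BaxKO against ESC Host and in PGC-ESC BaxKO against PGC-ESC DKO. Foxn4 was at 0.65 and 0.327 CPM in ESC BaxKO, 1.03 CPM in ESC BaxHet and 0.52 to 1.04 CPM in the 5 PGC-ESC BaxKO lines. It was at 2.67 to 22.3 CPM in the 7 C57Bl6J stem cell lines, so no line of 1 strain label reached the range of the other. The changes were -4.83 ± 0.67 (adjusted p 0.00045) in the ESC pair, where 2 members were called against 5.02% of all genes (2.76% higher and 2.26% lower), and -2.52 ± 0.44 (adjusted p 0.00138) in the PGC-ESC pair, where 5 were called against 23.6% (12.2% higher and 11.4% lower). The ESC change was -5.41 without ESC BaxKO 1 and the PGC-ESC change -1.92 without PGC-ESC DKO 1.

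Foxe1 lay the other way, at 2.17 and 0.327 CPM in ESC BaxKO, 0.528 CPM in ESC BaxHet and 1.17, 0.397, 1.10, 1.09 and 1.60 CPM in PGC-ESC BaxKO, against 0 to 0.265 CPM in the 7 C57Bl6J stem cell lines. All Bax lines were above all of these, with changes of 2.47 ± 0.62 (adjusted p 0.029) and 2.60 ± 0.65 (adjusted p 0.0105). The ESC difference rested on ESC BaxKO 1: without it the change was 0.54 (adjusted p 0.782), and without ESC Host 3 or ESC Host 4 the adjusted p was 0.0625 or 0.0586. Without PGC-ESC DKO 1 the PGC-ESC change was 3.20. ESC BaxKO 1 and 2 had a mean of 61.1 and 47.0 CPM of 4 Y-linked genes, and ESC Host lines 0 to 3.84 CPM. With a term for Y-linked reads the ESC change of Foxe1 was 2.75 ± 0.78 and was not called (adjusted p 0.102).

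Foxn2, Foxp1 and Foxk2 were the other calls in the PGC-ESC pair. Foxn2 was at 88.5 to 105 CPM (median 94.5) in PGC-ESC BaxKO and 38.0 to 62.8 CPM in PGC-ESC DKO (0.73 ± 0.15, adjusted p 0.00372). Foxp1 was at 1.25 to 9.04 CPM (median 3.35) against 8.35 to 11.3 CPM and overlapped through PGC-ESC BaxKO 5 (-1.35 ± 0.37, adjusted p 0.0157; 0.0708 with only the compared groups fitted). Foxk2 was at 86.1 to 102 CPM (median 94.5) against 57.5 to 76.1 CPM (0.34 ± 0.10, adjusted p 0.0233), and its call was lost without PGC-ESC DKO 2 or 3 (adjusted p 0.121 and 0.0787). The share of members called in this pair, 13.9%, was below that of all genes. All PGC-ESC DKO libraries were above 10000 CPM of Rn45s and all PGC-ESC BaxKO libraries below it. With a term for Rn45s, estimated from the ESC libraries that lie on either side within a group, none of the 5 was called (Foxn4 -1.90 ± 0.66, adjusted p 0.186, and Foxe1 1.30 ± 0.89, adjusted p 0.566). Calls over all genes fell from 3858 to 204 with that term.

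**Figure D4:**
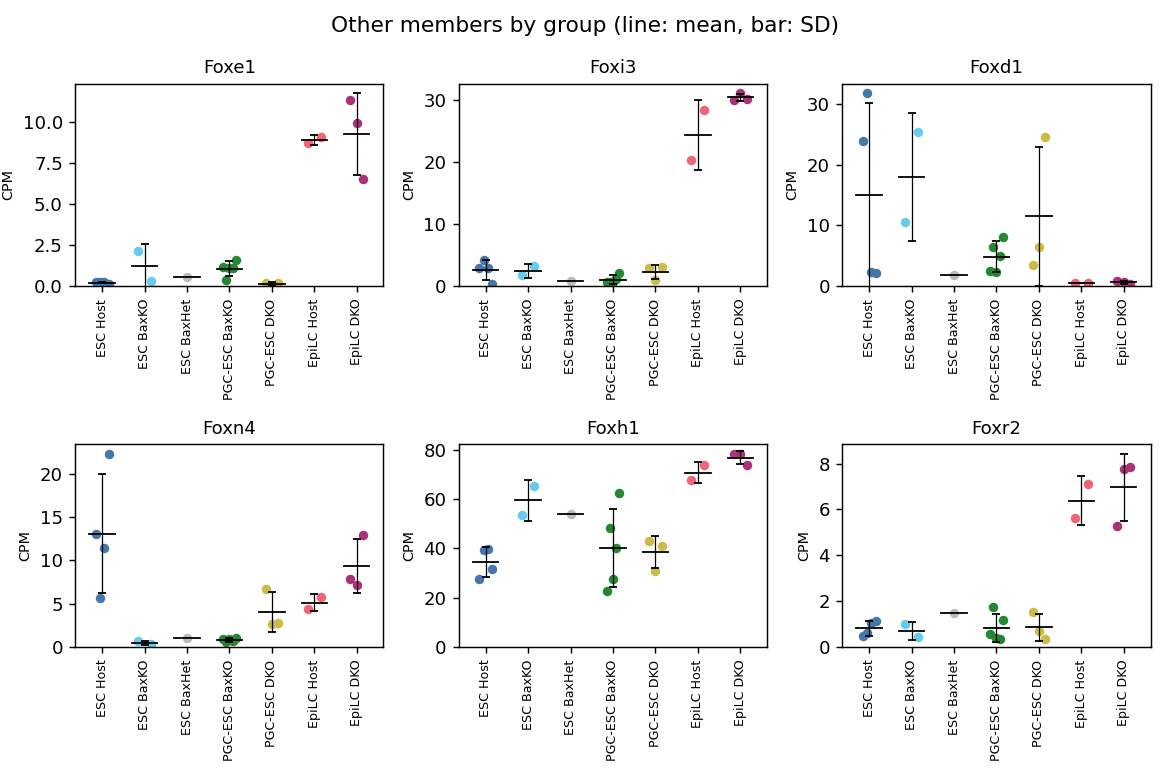
CPM (vertical axes, each from 0) of Foxe1, Foxi3, Foxd1, Foxn4, Foxh1 and Foxr2 by group on the horizontal axes; each point is a library, the line is the mean and the bar is the SD (not drawn below 0). Foxn4 is at 1.04 CPM or less in all Bax lines, Foxd1 spreads from 2.14 to 31.8 CPM within ESC Host, and Foxe1, Foxi3 and Foxr2 are highest in the EpiLC groups.

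The PGC-ESC BaxKO lines also differed among themselves. Foxp4 was at 74.1, 85.8 and 109.8 CPM in lines 1, 3 and 4 and at 162 and 202 CPM in lines 2 and 5. Foxp1 was at 2.21, 1.25 and 3.35 CPM in lines 1, 3 and 4 and at 4.46 and 9.04 CPM in lines 2 and 5, and Foxo1 at 17.2, 15.6 and 19.2 CPM and at 26.2 and 25.2 CPM. Foxc1 ran the other way, at 2.15, 1.41 and 0.686 CPM in lines 1, 3 and 4 and at 0.0917 and 0.0865 CPM in lines 2 and 5. Lines 1, 3 and 4 had no reads of 4 Y-linked genes and lines 2 and 5 had a mean of 53.5 and 53.0 CPM of them. This split was noticed after the values were seen, it holds 3 and 2 lines, and the part of Y-linked content in it was not tested.

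The remaining members were scarce. Foxa3 reached 2.16 CPM in its highest library and Foxa2 1.08 CPM, and Foxc2, Foxd2 and Foxn1 stayed under 1 CPM throughout. None of these 5 was called in any comparison, and 7 members were below the filter. At 0 to 0.264 CPM the depth of these libraries does not allow a level to be told from the absence of the transcript for those 7.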

How the data were processed

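The authors deposited 1 table of raw read counts per gene for 20 libraries, whole numbers with no normalization; every column matched a sample. Per the submitters' processing notes, STAR 2.7.7a and mouse build mm10 were used; the sources used here name no counting tool, annotation or strand setting. Coordinates, exon lengths and overlaps came from GENCODE on GRCm38, the same assembly, and promoters from RefSeq.

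The members, the gene lists and the tests were chosen with earlier results of these data known. Tests of the counts used edgeR 4.0.16 (R 4.3.3), with its two-sided quasi-likelihood F test, TMM scaling, default filter on low counts, 7 group means and 13 residual degrees of freedom; 16363 genes passed the filter and 4998 did not. P-values were adjusted by Benjamini-Hochberg over all tested genes. A positive change means a higher level in the first group of a comparison. CPM values use the library total and not TMM. Folds against a group with 0 counts set it to 3 counts over the group, and counting intervals are 95% exact intervals that cover counting error only. The test was first checked on data simulated with the spread fitted here. Changes were planted only in genes with a mean of at least 1 CPM, so the check does not cover scarcer members. Named members were those called in any of the 8 comparisons and those with a group mean of at least 5 CPM. Of each list, up to 3 called genes with the smallest adjusted p were named; a few named genes are not reported here.

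Replicate numbers mark the cell line in the EpiLC comparisons. Deviations from the group mean correlated at 0.0931 to 0.172 between an EpiLC library and its own parent, so a fit with lines paired was run as an alternative, and its value stands beside results whose call it changed. In the other comparisons the numbers only name libraries. No library was a duplicate: across 24 pairs within groups, chi-square divided by the number of genes ran from 7.10 to 240. The alternatives were RLE scaling, DESeq2 1.42.0, no filter or a stricter filter, stricter calls, a term for Rn45s or Y-linked reads, subsets by Rn45s, the compared groups alone, and leaving out libraries.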

Additional observations from a re-analysis of the deposited data

Results flagged for a closer look

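In 57 groups of 4 or 5 libraries, single libraries lay far outside the others of their group for 3 members; chance alone sets apart about 1 in 20 such groups. Foxk1 in ESC Host 4 was at 15.6 CPM (others 27.9 to 29.3 CPM), in the library with the lowest TMM factor. Foxo6 in ESC Host 3 was at 5.35 CPM (others 8.44 to 8.85 CPM). Foxp2 in ESC Host 3 was at 0.0309 CPM, a single count, where the other ESC Host libraries had 0.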

How the results depend on the processing

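Of 55 member results called in any comparison, 34 kept their call under every alternative counted, 21 lost it under at least 1, and 0 changed direction. When each library was left out in turn, 41 kept it. Stricter calls were not counted here, nor were fits in which a member was not tested. At an adjusted p under 0.01 or at least 2-fold, EpiLC Host against ESC Host kept 19 or 18 of 26 members (5121 or 4895 of 7206 genes). EpiLC DKO against PGC-ESC DKO kept 17 or 16 of 22 members (5573 or 4991 of 7792 genes). Counts with 1 library left out are given for fits that kept at least 2 in each group. These gave 23 to 27 called members in EpiLC Host against ESC Host (6918 to 7189 of all genes, from 7206) and 19 to 21 in EpiLC DKO against PGC-ESC DKO (6346 to 7185, from 7792). They gave 1 to 2 in ESC BaxKO against ESC Host (537 to 1015, from 821) and 4 to 6 in PGC-ESC BaxKO against PGC-ESC DKO (1552 to 4198, from 3858). The other 4 comparisons gave 0 (0 to 44 of all genes). Without either EpiLC Host library 1 was left in that group, and fewer members and fewer of all genes were called. The replicate block, with lines paired, gave 25 and 24 members in the EpiLC comparisons (6969 and 8092 of all genes). Among the 30 named members it changed the calls of Foxk2, Foxl2, Foxn4 and Foxp4, Foxp3 fell below its filter on low counts, and no other call there changed.

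In PGC-ESC BaxKO against PGC-ESC DKO, the 5 called members became 0 with a term for Rn45s, 0 with the replicate block, 2 at an adjusted p under 0.01 and 3 when at least a 2-fold change was asked. Calls over all genes went from 3858 to 204, 418, 1385 and 1570 in the same order, so the loss was not particular to the members. In ESC BaxKO against ESC Host, the 2 became 1 with a term for Y-linked reads, with the replicate block, at an adjusted p under 0.01 or with only the compared groups fitted. Calls over all genes went from 821 to 210, 180, 224 and 136 in the same order. Each subset by Rn45s held 1 ESC BaxKO library, so only changes are given for it. In the low subset Foxn4 changed by -3.80 and Foxe1 by 3.16. In the high subset Foxe1 changed by 0.64, Foxd1 by 3.35 and Foxp1 by -1.15. In both of these comparisons the replicate numbers only name libraries. In PGC-ESC DKO against ESC Host, DESeq2 called 1 and edgeR 0. The cause was not tested. EpiLC DKO and EpiLC Host share 1 replicate number, so no replicate block could be fitted there.

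RLE scaling gave the same counts of called members as TMM in all 8 comparisons. For members under 1 CPM, few counts limit what the data can show, and folds against 0 are lower bounds. With 2 to 5 lines per group, small changes may be missed.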
